A study of Equus caballus with 4 samples.

Results

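The genes described here were 10 cell adhesion genes of muscle precursor cells, namely the cadherins *CDH2*, *CDH11*, *CDH13* and *CDH15*, the catenins *CTNNB1*, *CTNNA1* and *CTNND1*, and the immunoglobulin-family molecules *NCAM1*, *ALCAM* and *VCAM1*. They were chosen by name, as the probes of the array whose gene name was that of a listed gene. By that rule 8 of the 10 genes were found, through 19 probes. The probe of *CDH15* was recognised from its description and that of *VCAM1* from its RefSeq accession, so that all 10 genes, of 13979 named genes on the array, were found through 21 of 43603 probes.

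Messenger RNA was measured in differentiating equine satellite cells (ESC) with and without HMB (*β*-hydroxy-*β*-methylbutyrate), a metabolite of leucine, on 4 Agilent arrays of 60-base probes (*n* 4). The cells came from the semitendinosus muscle of healthy colts aged 6 months, were cultured for 10 d and, at 80% confluence, moved to medium with 2% horse serum. After 48 h in that medium HMB was added for 24 h, at 50 µM according to the methods and 50 µg according to the sample labels, while control cells stayed in the same medium without it. Each array held HMB-treated cells in Cy5 and control cells in Cy3, by the titles and source names. The description of every sample instead calls the cells GO-treated and repeats a single replicate number, and the titles were followed. The dyes were never exchanged, so a preference of a probe for either dye and an effect of HMB cannot be told apart. Fibroblasts had been reduced by preplating, and the colt behind each array was not stated.

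Classical cadherins bind their own kind on the neighbouring cell through calcium-dependent contacts. Inside the cell their tail holds *β*-catenin, which *α*-catenin links to actin, and p120-catenin, which keeps the cadherin at the membrane. Myoblasts carry N-cadherin, M-cadherin and NCAM where they align before they fuse into myotubes, and *β*-catenin released from the junction can enter the nucleus and act with TCF factors.

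HMB-treated cells held less mRNA of M-cadherin (*CDH15*, 0.585 times control) and of NCAM (*NCAM1*, 0.535 times control), and more of *ALCAM* (1.59-fold), each on 4 of 4 arrays. N-cadherin (*CDH2*) did not pass the test, with a mean log2 ratio of 0.13. Of the 9 genes bright enough to be tested, 6 passed, 1 higher and 5 lower in HMB-treated cells. Over all 27384 tested probes 22.8% passed (3071 higher and 3186 lower). In an alternative called median centring here, the scanned signals were background-corrected by normexp and each array was centred on its median, without lowess. *CTNNB1*, among the 5 lower genes, then had a mean above 0 (0.33) but did not pass (adjusted *P* 0.0882). With median centring 3 of the 9 genes were higher and 2 lower, beside 5703 probes higher and 1585 lower. With a t-test probe by probe, which pools no variance over probes, 0 of the 9 passed, *ALCAM* and *NCAM1* included (adjusted *P* 0.0628 and 0.0779), beside 346 probes higher and 422 lower, and 6 of the 9 had an unadjusted *P* under 0.05. A probe passed at an adjusted *P* of at most 0.05 in limma, adjusted over all tested probes, and *VCAM1* was too dim to be tested. With median centring the 9 genes had a median log2 ratio of 0.0068, or -0.14 beside the median of all tested probes. With the deposited ratios the median of the 9 genes was -0.26, beside 0.02 over 9564 tested genes. By array their median was -0.17, -0.21, -0.38 and -0.58 on arrays 1 to 4, beside 0.04, 0.02, 0.02 and -0.0037 over the tested genes, so that the gap was widest on array 4 and narrowest on array 1.

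**Figure D1:**
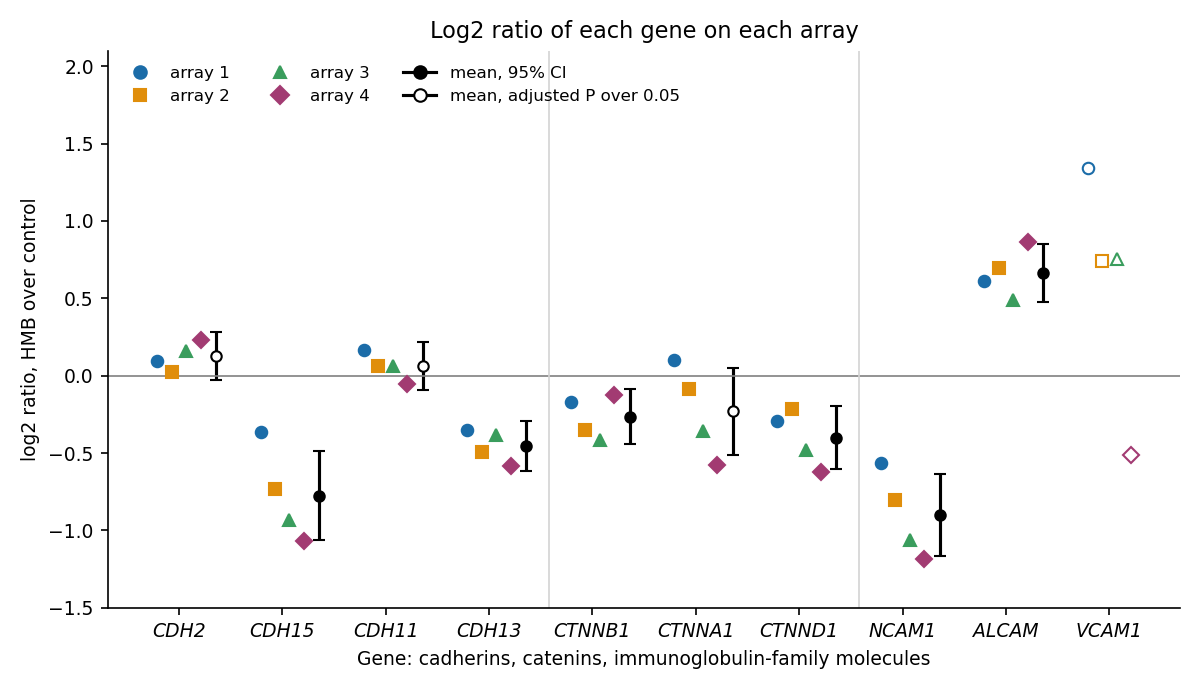
Log2 ratio of HMB-treated over control cells (vertical axis) of the 10 genes on each of 4 arrays (coloured points, open for the untested *VCAM1*), with the limma mean and its 95% confidence interval in black, open where the adjusted *P* was over 0.05. *CDH15* and *NCAM1* lie below 0 and *ALCAM* above 0 on every array, while *CTNNB1*, below 0 here, was above 0 with median centring.

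M-cadherin and NCAM gave the largest falls among the 10 genes, and their probes are printed because these readings stand for them. Both sequences are whole probes, read 5′ to 3′, with no base singled out by capitals. The positions are those in the files, on the EquCab1 build. The *CDH15* probe is given at chr3:63378474-63379468 (+ strand), a span of 995 bases for a 60-base probe, so its bases are not contiguous in the genome. The *NCAM1* probe is given at chr7:18350982-18351041 (+ strand).
CDH15: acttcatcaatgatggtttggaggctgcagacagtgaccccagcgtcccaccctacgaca
NCAM1: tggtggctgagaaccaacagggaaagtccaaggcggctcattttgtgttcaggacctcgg

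*CDH15* encodes M-cadherin, the cadherin of satellite cells and of fusing myoblasts. In array order its log2 ratios were -0.36, -0.73, -0.94 and -1.07. Array 1 stood nearest to 0 and array 4 farthest from it. The processed signal of its probe lay between 2979 and 3509 in control cells and between 1563 and 2626 in HMB-treated cells, and the channels did not overlap. The mean was -0.77 ± 0.31 (SD, *n* 4; adjusted *P* 0.00879, lower on 4 of 4 arrays), and 249 of 9564 tested genes had a lower mean. Without the filter on dim probes its adjusted *P* was 0.0632.

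*CDH2* encodes N-cadherin, the other classical cadherin of myoblasts. The log2 ratios of N-cadherin, from array 1 to array 4, were 0.10, 0.03, 0.16 and 0.23. Every array was slightly above 0, and the control signal (5653 to 6719) overlapped with the HMB signal (6303 to 7299). The mean of 0.13 ± 0.09 had an adjusted *P* of 0.194 (higher on 4 of 4 arrays) and did not pass. The median of all tested probes was 0.02 with the deposited ratios, 0.0001 with normexp and loess and 0.15 with median centring, where both the background correction and the dye normalisation differ from the deposited ones. With median centring *CDH2* had a mean of 0.43 (adjusted *P* 0.0464), which was 0.28 above that median.

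These cadherins of myoblasts were also set beside each other within each array. *CDH15* minus *CDH2* was -0.46, -0.76, -1.09 and -1.30 on arrays 1 to 4. The difference was negative on all 4 arrays, with a mean of -0.90 ± 0.37 (SD). An exact two-sided sign-flip permutation test gave a *P* of 0.125, the smallest that 4 arrays allow (0.188 adjusted over 6 such pairs), so that no difference of this kind could pass 0.05. *NCAM1* minus *CDH2* was -0.66, -0.83, -1.22 and -1.41, also negative on all 4 arrays (mean -1.03 ± 0.35), with the same exact *P* of 0.125. Such a difference does not show that *CDH2* was constant, and unequal dye preference of the probes cannot be told apart from unequal change.

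*CDH13* encodes T-cadherin, which is anchored to the membrane by a lipid, lacks the tail that binds catenins, and is a receptor for adiponectin. Its brightest probe gave -0.35, -0.50, -0.38 and -0.59 on arrays 1 to 4. The arrays were alike in sign and close in size, although the control signal (14820 to 19030) just met the HMB signal (11110 to 14930). The mean was -0.45 ± 0.11 (adjusted *P* 0.00784, lower on 4 of 4 arrays), and the other probe passed as well with a mean of -0.35. With median centring the mean was -0.07 (adjusted *P* 0.617), or -0.22 beside the median of all tested probes, and with the channels unpaired the adjusted *P* was 0.0560.

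*CDH11* encodes OB-cadherin, a classical cadherin of mesenchymal cells. Its probe gave log2 ratios of 0.17, 0.06, 0.06 and -0.05 in array order. Arrays 1 to 3 were above 0 and array 4 was below it, and the channels overlapped (2904 to 3114 in control cells, 3002 to 3387 with HMB). The mean of 0.06 ± 0.09 did not pass (adjusted *P* 0.525), whereas with median centring it was 0.31 (adjusted *P* 0.0411).

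**Figure D2:**
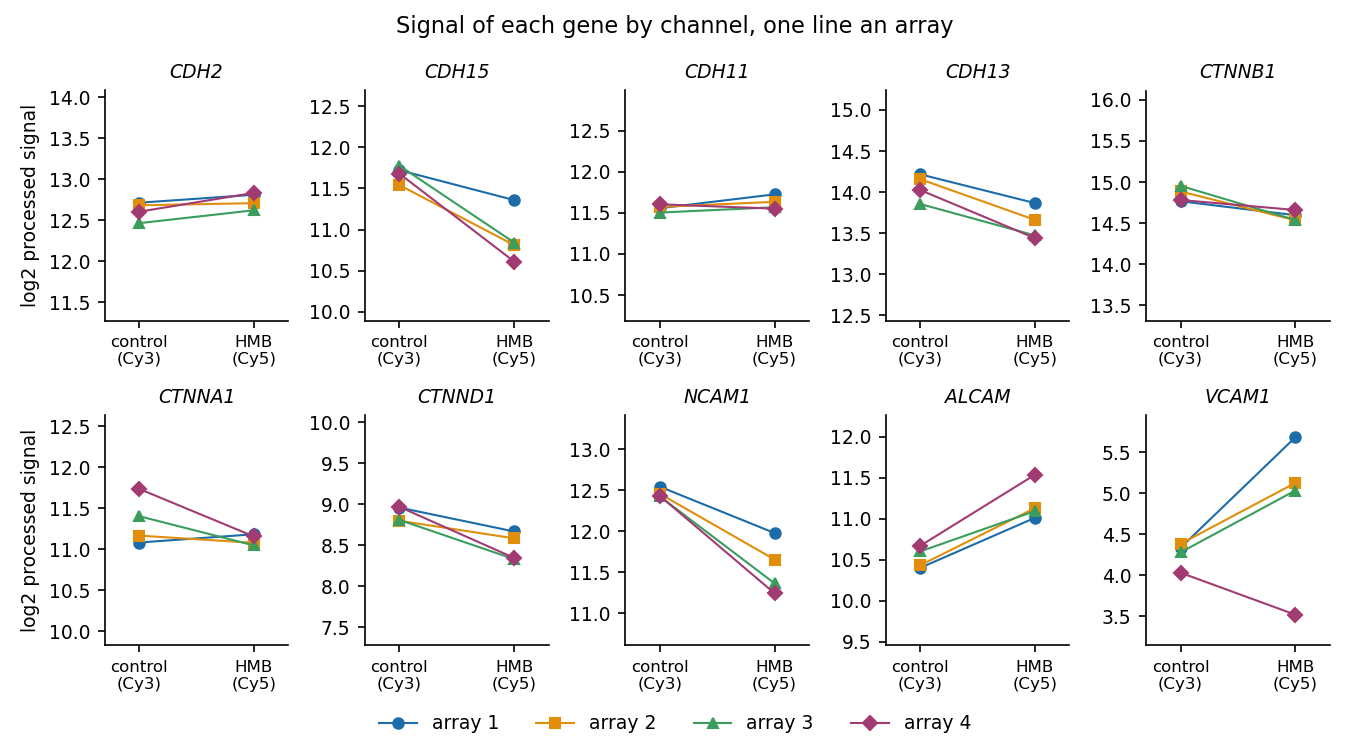
Log2 processed signal (vertical axes, each spanning the same range) of the brightest probe of each gene in control cells (Cy3) and HMB-treated cells (Cy5), with a line for each array. The HMB signals of *CDH15* and *NCAM1* lie below every control signal and those of *ALCAM* above every control signal, while the channels of *CDH2* overlap.

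Among the catenins, *CTNNB1* (*β*-catenin) and *CTNND1* (p120-catenin) passed the test and *CTNNA1* (*αE*-catenin) did not. All 3 had negative means, but with median centring *CTNNB1* turned to 0.33 and *CTNNA1* to 0.0068. Beside the median of all tested probes, 0.15 with median centring, *CTNNB1* was 0.18 higher, *CTNNA1* lay at -0.14 and *CTNND1* at -0.37. *CTNND1* gave -0.29, -0.21, -0.48 and -0.62 on arrays 1 to 4. Arrays 3 and 4 were lower than arrays 1 and 2, and the control signal (445.1 to 500.4) stayed above the HMB signal (322.1 to 406.6). Its mean was -0.40 ± 0.18 (adjusted *P* 0.0215, lower on 4 of 4 arrays). It no longer passed without array 3 (-0.38, adjusted *P* 0.0877), with median centring (-0.22, adjusted *P* 0.0726) or without the filter on dim probes (adjusted *P* 0.0781).

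*CTNNB1* was read by 5 probes. The brightest gave -0.17, -0.35, -0.42 and -0.12 on arrays 1 to 4. Arrays 2 and 3 were the lowest, and the control signal (27870 to 31730) stayed above the HMB signal (23730 to 25890). The mean was -0.26 ± 0.14 (adjusted *P* 0.0483, lower on 4 of 4 arrays). This call was narrow. The adjusted *P* was 0.0679 without array 1, 0.195 without array 2 and 0.191 without array 3. It was 0.0759 with the channels unpaired and 0.0992 without the filter on dim probes, and with median centring the mean turned to 0.33 (adjusted *P* 0.0882), or 0.18 above the median of all tested probes.

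The probes of *CTNNB1* fell into a cluster of 4 overlapping probes and a single probe upstream of them. The single probe is shown because it places the reading at the end of the coding sequence: the 36 of its 60 bases that are printed are the last of the open frame, and the capitals mark the stop codon. The whole probe is given at chr16:44553202-44553262 (- strand, EquCab1).
CTNNB1: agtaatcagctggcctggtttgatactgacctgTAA

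This stop-codon probe gave 0.06, -0.33, -0.62 and -0.97 on arrays 1 to 4. Array 1 was just above 0 and array 4 far below it, a wider spread than that of the brightest probe, on which array 4 was nearest to 0. Its mean was -0.46 ± 0.43 and did not pass (adjusted *P* 0.0831, lower on 3 of 4 arrays). Over the 5 probes the means ran from -0.46 to -0.18, and 3 of the 5 passed, all 3 in the cluster, whose neighbouring probes overlap and are not independent readings.

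*CTNNA1* encodes *αE*-catenin, the link between *β*-catenin and actin. Its brightest probe gave 0.10, -0.09, -0.36 and -0.58 on arrays 1 to 4. Array 1 was above 0 and array 4 the lowest. The HMB signal was steady (2115 to 2324) and lay within or just under the control signal, which ran from 2168 on array 1 to 3409 on array 4. The mean of -0.23 ± 0.30 did not pass (adjusted *P* 0.199, lower on 3 of 4 arrays). The other 4 probes are shifted by 1 or 2 bases from it, so that the 5 means, from -0.23 to -0.20 with 0 passing, count as a single reading. With median centring the adjusted *P* was 0.953. With each array left out the mean of the brightest probe ran from -0.34 (without array 1) to -0.11 (without array 4) and did not pass.

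*CDH2*, *CDH15* and the other catenins were also set beside *CTNNB1* on the same array. *CDH2* minus *CTNNB1* was 0.27, 0.38, 0.57 and 0.35 on arrays 1 to 4. It was positive on all 4 arrays, with a mean of 0.39 ± 0.13 (exact two-sided *P* 0.125), but 0.10 with median centring. *CDH15* minus *CTNNB1* was -0.19, -0.38, -0.52 and -0.95, negative on all 4 arrays, with a mean of -0.51 ± 0.32 (exact two-sided *P* 0.125) and of -0.87 with median centring. *CTNND1* minus *CTNNB1* had a mean of -0.14 ± 0.27 (exact two-sided *P* 0.500, negative on 3 of 4 arrays), and -0.55 with median centring. With each array left out it ran from -0.23 to -0.015, the latter without array 4. *CTNNA1* minus *CTNNB1* had a mean of 0.03 ± 0.34 (exact two-sided *P* 0.875, positive on 3 of 4 arrays), and its sign changed to -0.33 with median centring, to -0.045 without array 1 and to -0.043 without array 2.

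**Figure D3:**
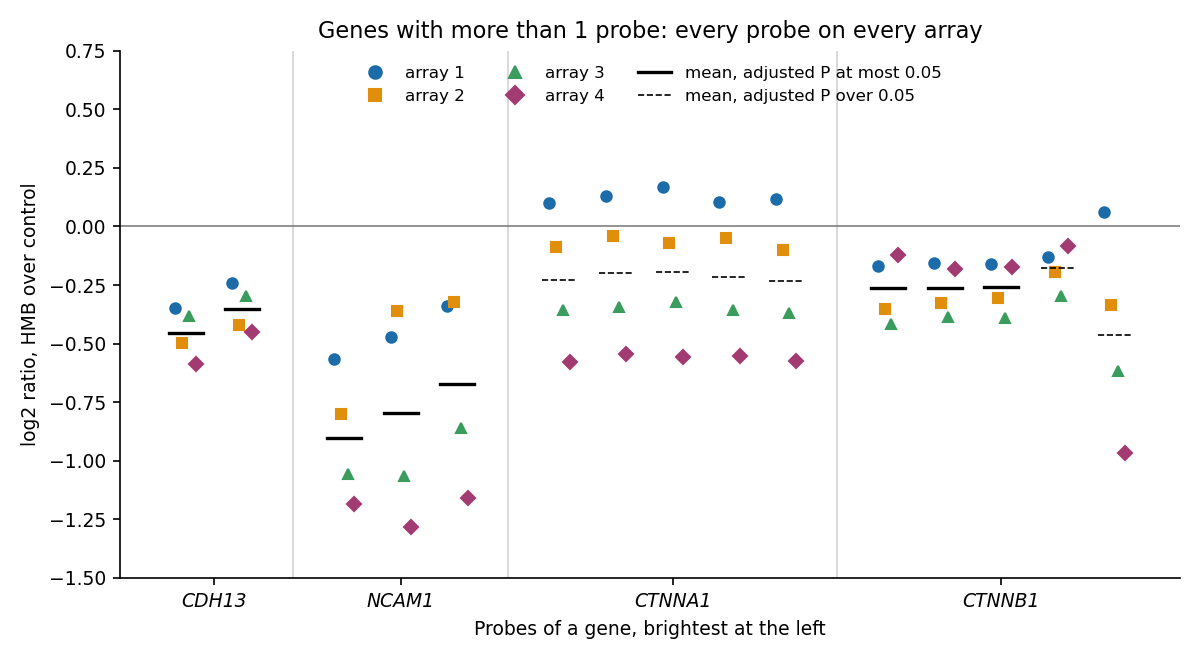
Log2 ratio of HMB-treated over control cells (vertical axis) on each array for every probe of the 4 genes with more than 1 probe, brightest probe at the left, with the mean as a solid bar where the adjusted *P* was at most 0.05 and dashed where it was not. The 3 *NCAM1* probes all passed below 0, while the means of the *CTNNB1* probes, below 0 here, run from -0.46 to -0.18 and the brightest turned positive with median centring.

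*NCAM1* encodes the neural cell adhesion molecule, a surface marker of myoblasts and young myotubes that binds its own kind and carries polysialic acid. Its brightest probe, printed above, gave -0.56, -0.80, -1.06 and -1.19 on arrays 1 to 4. As for *CDH15*, array 1 stood nearest to 0 and array 4 farthest from it. The control signal was steady, between 5495 and 5965, and the HMB signal lay below it on every array, between 2426 and 4035. The mean was -0.90 ± 0.28 (adjusted *P* 0.00450, lower on 4 of 4 arrays), and 167 of 9564 tested genes had a lower mean. The other 2 probes lie farther 3′ on the same transcript, side by side and without overlap. All 3 passed, with means from -0.90 to -0.67.

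*ALCAM* encodes the activated leukocyte cell adhesion molecule, which binds itself and CD6. The 4 arrays gave log2 ratios of 0.61, 0.70, 0.49 and 0.86, in order. Array 4 was the highest and array 3 the lowest, and the control signal (1352 to 1629) lay below the HMB signal (2063 to 2967) throughout. The mean was 0.67 ± 0.16 (adjusted *P* 0.00414, higher on 4 of 4 arrays), and 143 of 9564 tested genes had a higher mean. It was the only tested gene of the 10 to rise, except that *CDH2* and *CDH11* also passed above 0 with median centring.

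*VCAM1* encodes the vascular cell adhesion molecule, which on myoblasts and myotubes binds integrin *α*4*β*1 of the neighbouring cell. Its probe was near the background, with a processed signal of 16.4 to 20.9 in control cells and 11.5 to 51.3 with HMB. Both channels were well above background on 3 of 4 arrays, so it was not tested. The log2 ratios in array order were 1.34, 0.74, 0.75 and -0.51. Arrays 1 to 3 were above 0, and array 4, where neither channel was above background, was below it. The mean was 0.58 ± 0.78, and without the filter on dim probes the adjusted *P* was 0.362.

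The labelled cell type was checked against its markers, and the values of the adhesion genes stand beside them. Of 12 satellite cell and myoblast markers 8 were tested, and 6 fell and 0 rose (75% passed, beside 22.7% of all tested genes), with a median log2 ratio of -0.44 (by array -0.42, -0.41, -0.58 and -0.60). Among them *MYF5* had a mean of -1.01, *DES* -0.98 and *MYOD1* -0.46, and the brightest probe was that of *DES*. *MYOD1* did not pass without array 2, 3 or 4 (adjusted *P* up to 0.0902). Nor did *MYOG* (-0.42) without array 2 or array 3 (adjusted *P* up to 0.0901). *MYF6* (-0.28) did not pass with any array left out (adjusted *P* up to 0.161). Without array 2 or array 3 the genes that passed were *MYF5*, *DES* and *CHRNA1*. *PAX7*, the defining gene of quiescent satellite cells, was above background on 0 arrays, and *PAX3* was above it on 1 array, in control cells. With median centring 4 of the 8 passed, all lower, and the median of the 8 was -0.25.

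Of 18 myotube markers 17 were tested, and 16 fell and 0 rose (94.1% passed, beside 22.7% of all tested genes). The median of the 17 was -0.88, or -0.43 with median centring. Without array 3, *ACTC1*, *CKM*, *TNNT3*, *TNNI1*, *MYL1* and *NEB* no longer passed (adjusted *P* from 0.0619 to 0.160). Without array 2 the same genes except *MYL1* no longer passed, and without array 4 *ACTC1*, *CKM* and *TNNI1*. *MYH2*, with the lowest mean (-1.96), was above background with HMB on 2 arrays and entered the test through the control channel alone. With median centring 12 were lower and 1 was higher. By array the median was -0.43, -0.86, -1.06 and -1.32, so that array 1 stood nearest to 0 and array 4 farthest from it, as for *CDH15* and *NCAM1*. This order is not particular to them. The SD of the log2 ratios of all non-control spots also rose, at 0.43, 0.46, 0.48 and 0.54 on arrays 1 to 4. Genes outside the myotube list shared the order, such as *COL1A1* (0.31, -0.56, -0.64 and -1.26) and *NRCAM* (-0.27, -0.58, -0.83 and -1.14). The summed control signal of the 17 genes was 490800, 496300, 555200 and 584200 on arrays 1 to 4, and the summed HMB signal was 388400, 283900, 289600 and 279300, with the brightest probe that of *ACTC1*. The part of these genes in the falls of *CDH15* and *NCAM1* was not tested. The RNA of a whole culture was read, so fewer cells of a type and less mRNA per cell cannot be told apart.

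Of 13 fibroblast markers 12 were tested, and 16.7% passed, beside 22.7% of all tested genes. Of these, 2 were higher (*PDGFRA*, mean 1.53, and *FAP*, 0.42) and 0 lower, and the median of the 12 was 0.01. *FAP* did not pass without array 1, 2 or 3 (adjusted *P* up to 0.0802). The brightest probe of the list was that of *COL1A2*. With median centring 9 of the 12 were higher, with a median of 0.67, or 0.52 above the median of all tested probes. The summed control signal was 537100, 487200, 512000 and 645700 on arrays 1 to 4, and the summed HMB signal was 617500, 452900, 479700 and 473300. HMB was the higher channel on array 1 and the lower channel on the other arrays. The part of fibroblasts in the ratios of *CDH11* and *ALCAM* was not tested.

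Other cell types gave few readings. Of 9 leukocyte markers 4 were tested and 1 rose (*PTPRC*, 0.28), with 3 higher under median centring. *PTPRC* did not pass with any array left out (adjusted *P* up to 0.115). Of 7 smooth muscle and pericyte markers 6 were tested, and 2 fell (33.3%, beside 22.7% of all tested genes). The median of the 6 was -0.46, or -0.16 with median centring. The 2 were *MYH11* (-1.18) and *NOTCH3* (-0.68), each above background with HMB on 3 arrays, and they entered the test through the control channel alone. The other 4, above background with both dyes on all arrays, did not pass. *MYH11* was lowest on array 4 (-2.45 beside -0.89 to -0.54). Without that array its mean was -0.76, and it did not pass without array 1, 2 or 3 (adjusted *P* up to 0.0802). None of the endothelial, adipocyte or Schwann cell markers had a probe bright enough to be tested, 0 of 8, 0 of 7 and 0 of 5 of those found on the array. *PECAM1* was above background on 0 arrays and *CDH5* on 1, in control cells.

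Further genes of adhesion and of *β*-catenin were followed in 8 lists, and of each the genes past the threshold with the largest means are named. Of these 22 genes, 19 no longer passed with a t-test probe by probe, 15 without the filter on dim probes, 13 with the channels unpaired and 4 with normexp and loess. In these settings, in that order, 2.8%, 8.5%, 8.1% and 22.8% of all tested probes passed, beside 22.8% with limma on the deposited ratios. With array 1, 2, 3 or 4 left out 3, 10, 12 and 4 no longer passed. With median centring 8 kept their sign but no longer passed, and 1 more (*ACTN1*) changed sign and did not pass either. Most of the other cadherins were near background. Of 46 found, 8 were tested, and 30 were above background on no array. *PCDH7* rose (mean 0.30, adjusted *P* 0.0368, 4 of 4 arrays) and *PCDH9* fell (-0.28, adjusted *P* 0.0197, 4 of 4 arrays), both protocadherins, whose tails do not bind *β*-catenin. The other 6 had means between -0.63 and 0.09. The median of the 8 was -0.13, beside 0.02 over all tested genes. *PCDH7* did not pass with any array left out (adjusted *P* up to 0.107), and *PCDH9* did not pass with median centring (-0.14) or without array 2 or array 3.

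Of the other catenins and junction plaque genes 12 were tested and only *ACTN1* passed (8.3%, beside 22.7% of all tested genes). Its mean turned above 0, without passing, with median centring. *ACTN1* encodes *α*-actinin-1, which crosslinks actin at adhesions. In array order its log2 ratios were -0.32, -0.45, -0.45 and -0.82, with array 4 the lowest. The mean was -0.51 ± 0.22 (adjusted *P* 0.0143), against 0.19 (adjusted *P* 0.162) with median centring. The other 11, among them plakoglobin and vinculin, had means between -0.38 and 0.26, and the median of the 12 was -0.09, or 0.12 with median centring.

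Of the other immunoglobulin-family adhesion genes 18 were tested, and 3 rose and 5 fell (44.4%, beside 22.7% of all tested genes). Their median was -0.12, or -0.01 with median centring. Those that rose were *ICAM1* (mean 0.81), a ligand of leukocyte integrins, *ICAM5* (0.42) and *F11R* (JAM-A, 0.96). *F11R* was above background on 4 arrays with HMB and on 0 in control cells, so it entered the test through the HMB channel alone and its ratio rests on a control signal not told from background. Its mean was 0.23 with normexp and loess and 0.14 with median centring (adjusted *P* 0.189). *ICAM1* gave 1.26, 0.78, 0.62 and 0.60 on arrays 1 to 4. Array 1 was the highest, and the adjusted *P* of the mean was 0.00766.

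The genes that fell were *BCAM* (-0.85), a laminin receptor, *MCAM* (-0.85), *JAM2* (-0.77), *NRCAM* (-0.71) and *CADM4* (-0.40). *MCAM* was above background with HMB on 2 arrays and entered the test through the control channel alone. Its mean was -0.33 (adjusted *P* 0.322) without the filter on dim probes, where a brighter probe stood for the gene. With both channels required above background, neither *F11R* nor *MCAM* was tested, and 2 genes of the list rose and 4 fell. Without array 3 the counts were 2 and 3, and without the filter on dim probes 1 and 1. With a t-test probe by probe 1 gene of the list rose and 0 fell. The share of all tested probes fell in these settings too, from 22.8% to 10.0% without array 3, 8.5% without the filter and 2.8% with the t-test. With normexp and loess *BCAM* had a mean of -0.39, *MCAM* of -0.38 and *ICAM1* of 0.38, and with median centring they had means of -0.44, -0.47 and 0.40. *JAM2* encodes JAM-B, which takes part in myoblast fusion in zebrafish, and gave -0.44, -0.72, -0.88 and -1.05 on arrays 1 to 4. Array 1 stood nearest to 0 and array 4 farthest from it, and the adjusted *P* was 0.00622. *ICAM5* did not pass without array 2, 3 or 4, and *NRCAM* did not pass without array 3 (adjusted *P* 0.0675).

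**Figure D4:**
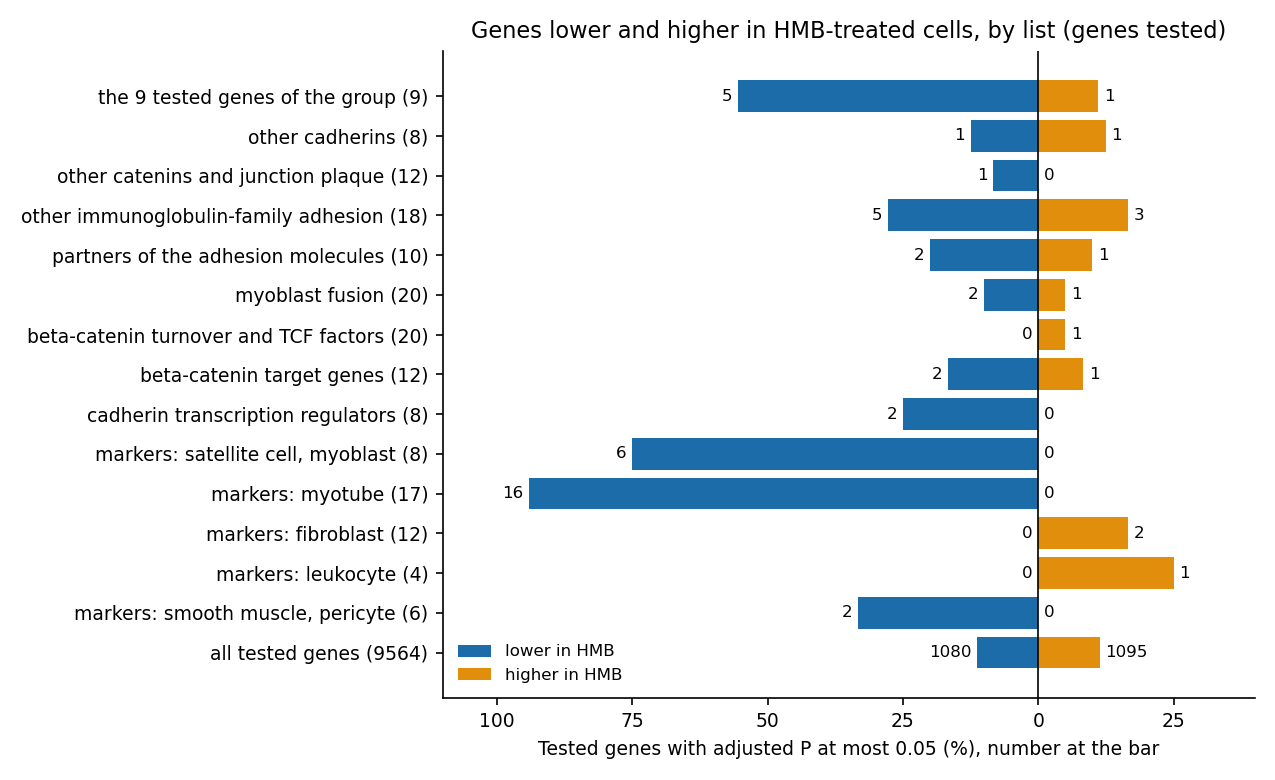
Percentage of the tested genes of each list (number tested in brackets) that passed with lower (left) or higher (right) mRNA in HMB-treated cells, with the number of genes at each bar. The myotube markers passed on the lower side in 16 of 17 and the 10 adhesion genes in 5 of 9 tested, although with median centring these were 12 and 2, with 1 and 3 on the higher side.

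Of 10 tested partners of the adhesion molecules 1 rose and 2 fell (30.0%, beside 22.7% of all tested genes), with a median of -0.11 (0.03 with median centring). The *α*4 integrin subunit gene *ITGA4*, a subunit of the receptor for VCAM-1, gave -0.44, -0.54, -0.41 and -1.28 on arrays 1 to 4. Array 4 stood apart from the other arrays, and the mean of -0.67 ± 0.41 (adjusted *P* 0.0262, lower on 4 of 4 arrays) did not pass without array 1, 2 or 3 (adjusted *P* up to 0.0662). *ITGB7*, whose product pairs with *α*4, had a mean of -0.46, was above background with HMB on 2 arrays and entered the test through the control channel alone, so that 1 gene of the list fell when both channels had to be above background. It did not pass without array 2, 3 or 4, with normexp and loess (-0.18, adjusted *P* 0.0679) or with median centring (-0.29, adjusted *P* 0.0518). *ITGA9*, a related subunit whose integrin also binds VCAM-1, gave 0.69, 0.58, 0.70 and 0.49. All 4 arrays were alike, and the mean of 0.61 ± 0.10 (adjusted *P* 0.00324) passed under every alternative tried. *CD6*, *FGFR1*, *ITGB1* and the proteases and *γ*-secretase genes that cut cadherins were among the 7 between -0.29 and 0.13 that did not pass, and the polysialyltransferases of NCAM were not tested.

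Of 20 tested genes of myoblast fusion 1 rose and 2 fell (15.0%, beside 22.7% of all tested genes), with a median of -0.02. With median centring 5 rose and 1 fell, with a median of 0.18. *ARF6*, a small GTPase at the fusing membrane, rose (0.46, adjusted *P* 0.0109, 4 of 4 arrays). *NEO1* (neogenin, -0.52, adjusted *P* 0.0151) and *DYSF* (dysferlin, a membrane repair protein, -0.36, adjusted *P* 0.0303) fell on 4 of 4 arrays. The other 17 had means between -0.49 and 0.29. Without array 3 none of these 3 passed, *ARF6* at an adjusted *P* of 0.0519. *NEO1* did not pass without array 2 either (adjusted *P* 0.0542), nor *DYSF* without array 2 (0.126), without array 4 (0.0601) or with median centring (-0.21, adjusted *P* 0.115).

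Of 20 tested genes of *β*-catenin turnover and TCF factors 1 rose and 0 fell (5.0%, beside 22.7% of all tested genes), with a median of 0.0003. The gene that rose was *PYGO1* (0.38, adjusted *P* 0.0160, 4 of 4 arrays), a nuclear cofactor of *β*-catenin. *PYGO1* did not pass with normexp and loess (0.18, adjusted *P* 0.0559), with median centring (0.20, adjusted *P* 0.0909) or without array 2 or array 3. *LEF1* and *TCF7* were above background on no array.

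Of 12 tested *β*-catenin target genes 1 rose and 2 fell, with a median of -0.03 (0.18 with median centring). *DKK1*, a secreted inhibitor of WNT receptors, gave 0.87, 1.58, 1.39 and 2.06 on arrays 1 to 4. Array 4 was the highest and array 1 the lowest, and the mean was 1.48 ± 0.49 (adjusted *P* 0.00440). *CCN4* (WISP1) fell (-0.70 ± 0.26, adjusted *P* 0.00823, 4 of 4 arrays), with a mean of -0.35 under normexp and loess. *NKD2* had a mean of -0.60 (adjusted *P* 0.0452, 4 of 4 arrays), was above background with HMB on 3 arrays, and did not pass without array 1, 2 or 3. Array 4 was the lowest (-1.25 beside -0.49 to -0.21), and without it the mean was -0.38. Nor did *NKD2* pass with normexp and loess (-0.18, adjusted *P* 0.0533), with median centring (-0.28, adjusted *P* 0.0561) or with the channels unpaired (adjusted *P* 0.523). With both channels required above background it was not tested, and 1 gene of the list fell. *AXIN2*, a general target of the pathway, was among the 9 that did not pass, between -0.20 and 0.57.

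Of 8 tested transcriptional regulators of cadherins 2 fell and 0 rose, with a median of -0.06 (0.02 with median centring, where 2 were higher and 0 lower). *ZEB2*, a repressor of E-cadherin, gave -0.47, -0.50, -0.57 and -0.34 on arrays 1 to 4. The arrays were alike, and the mean was -0.47 ± 0.10 (adjusted *P* 0.00662), against -0.26 (adjusted *P* 0.0885) with median centring. *FOXC2* had a mean of -0.32, was above background with HMB on 2 arrays and entered the test through the control channel alone. It did not pass with normexp and loess (-0.13, adjusted *P* 0.113), with median centring (-0.24, adjusted *P* 0.0622), with the channels unpaired (adjusted *P* 0.420) or without array 2 or array 3. With both channels required above background, 1 gene of the list fell and 1 rose. Over all 8 lists, without the 10 genes, 23 of 107 tested genes passed (21.5%, 8 higher and 15 lower), beside 22.7% of all tested genes, and with median centring the counts were 18 higher and 8 lower. A share this near to that of all tested genes is no result about the lists.

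**Figure D5:**
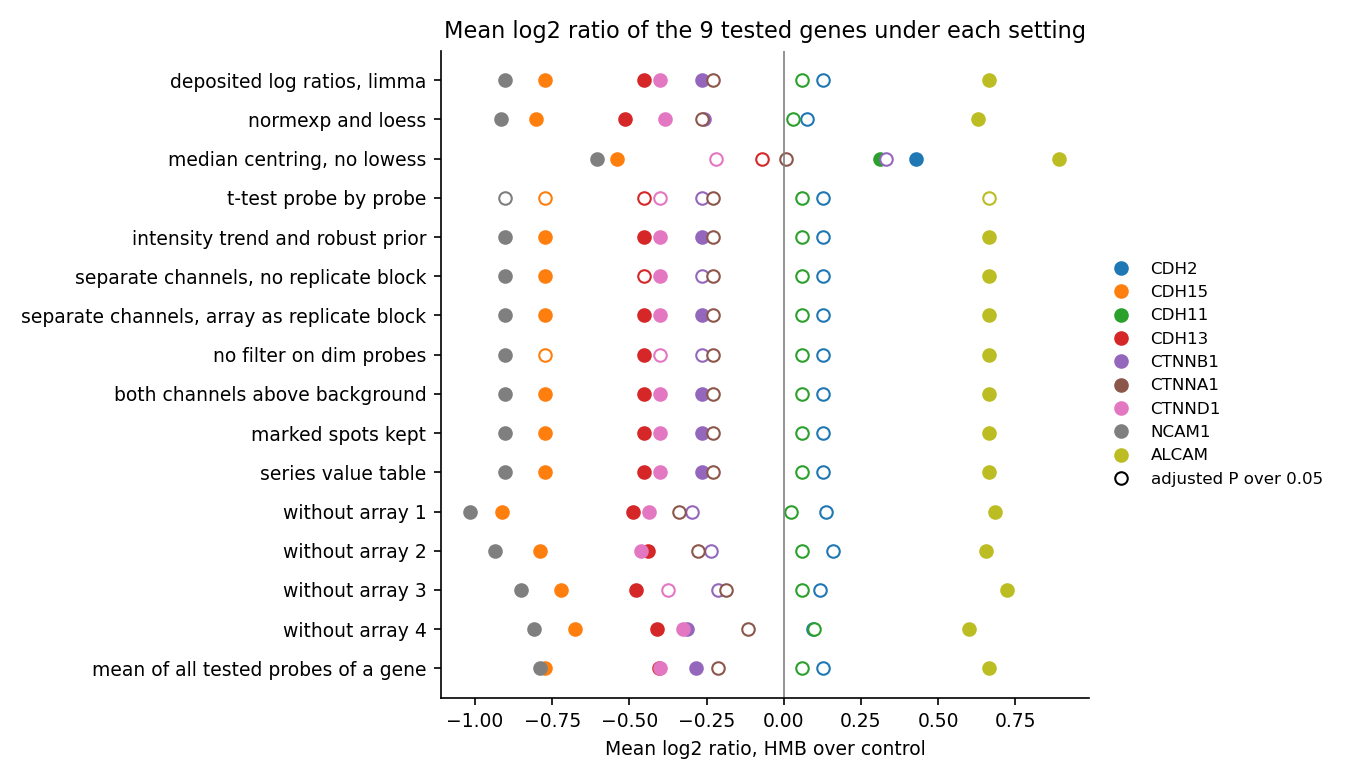
Mean log2 ratio (horizontal axis) of the 9 tested genes under each way of processing or testing the data (rows), open where the adjusted *P* was over 0.05. *NCAM1* and *CDH15* stay below 0 and *ALCAM* above 0 in every row, while *CTNNB1* and *CTNNA1* move above 0 with median centring.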

How the data were processed

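Differentiating ESC with HMB (Cy5) and control ESC (Cy3) shared each of 4 two-colour arrays on 1 slide (*n* 4), scanned by the authors and extracted with Feature Extraction. Its version is 10.10.1.1 in the scanner output, whereas the methods name an earlier version. The deposited log ratios are in log10, Cy5 over Cy3, after linear and lowess dye normalisation by the authors. The deposited signals are in intensity units, both as scanned and after background subtraction, detrending and dye normalisation. Further deposited columns are Feature Extraction's 0 or 1 marks for dim, saturated or irregular spots. The deposited value table repeats the log10 ratios, although it is described as log2.

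Log ratios times 3.32 gave log2 ratios. Control spots and irregular spots (11 to 32 an array) were dropped, and 0 spots were saturated. The test took 27384 probes for which either dye stood well above background on all 4 arrays, with 3 or more unmarked values, and 16219 probes fell short. A gene is represented by its brightest tested probe. The mean ratio was tested two-sided against 0 with limma (version 3.58.1, R 4.3.3), using empirical Bayes variances and *P* values adjusted by Benjamini and Hochberg's method across every tested probe. Differences between genes on an array had an exact two-sided sign-flip permutation test. The procedure was also run on simulated data, with no outcome of that run reported here. Other software was the data.table package (1.17.8), Python 3.11.15, pandas 2.3.3, numpy 2.4.6 and matplotlib 3.10.9. The number of arrays limits the precision.

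The genes and lists were chosen with earlier results of these data known. Of each list, up to 4 genes in each direction with the largest mean log2 ratio among those past the threshold are named. *CADM4*, the marker genes and genes named as not passing or not tested were chosen after their values were seen. Some genes stand in more than 1 list. Besides *CDH15*, other genes were recognised from the probe description. Among them were *ICAM1*, *ICAM5*, *BCAM* and the markers *TNNT1*, *TNNI1*, *TTN*, *COL1A1*, *PTPRC* and *NOTCH3*. As for *VCAM1*, a RefSeq accession named *CCN4*. Over the array 24057 probes took the gene name as deposited, 2013 a name from a RefSeq accession, 78 from a synonym and 65 from the description.

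These choices were varied in turn: the background correction and dye normalisation together (normexp with an offset of 50 followed by loess, or by median centring without lowess), the test (a one-sample t-test probe by probe, or limma with a robust prior and an intensity trend), the pairing (channels apart, with or without the array as block), the filter (none, or both dyes above background), irregular spots (kept), the source of values (the value table), the threshold (1.3-fold required in addition), the probe (all tested probes of a gene averaged) and the arrays (each omitted once, with at least 2 values a probe).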

Additional observations from a re-analysis of the deposited data

Results flagged for a closer look

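In 6 of 56 sets of 4 array values a single array lay far from the other arrays for the range of the set, where chance flags about 1 in 20. Array 4 was apart for *PCDH7* (0.53 beside 0.21 to 0.25), for *ITGA4* (-1.28 beside -0.54 to -0.41), for the median of the smooth muscle and pericyte markers (-1.01 beside -0.24 to -0.15) and, by a small distance, for the median of the myoblast fusion genes (-0.026 beside 0.035 to 0.040). Array 2 was apart for *ARF6* (0.24 beside 0.50 to 0.56), and array 1 for the median of the fibroblast markers (0.32 beside -0.07 to -0.02). None of the 10 adhesion genes was among these sets. The causes were not tested.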

How the results depend on the processing

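*NCAM1*, *ALCAM*, *CDH15*, *CDH13* and *CTNND1* kept their direction under every alternative, and *NCAM1*, *ALCAM*, *CDH15* and *CDH13* passed with each array left out. The sign of *CTNNB1* changed with median centring, also beside the median of all tested probes (0.18), whereas *CTNNA1* stayed negative beside that median (-0.25 as deposited, -0.14 with median centring). The cause was not tested. Signal near background limited *VCAM1*.

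With median centring, *CDH2* (0.43) and *CDH11* (0.31) came to pass, *CDH13* (-0.07) and *CTNND1* (-0.22) no longer passed, and *CTNNA1* (0.0068), *CTNNB1* (0.33) and *ACTN1* (0.19) changed sign. Counts were 3 genes of the group higher and 2 lower, 18 list genes higher and 8 lower, and 5703 probes higher and 1585 lower. The differences were 0.10 for *CDH2* minus *CTNNB1*, -0.87 for *CDH15* minus *CTNNB1*, -0.55 for *CTNND1* minus *CTNNB1* and, with the sign changed, -0.33 for *CTNNA1* minus *CTNNB1* (-0.0061 with normexp and loess).

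With a t-test probe by probe, which pools no variance over probes, 0 genes of the group passed in either direction: *CDH13* (-0.45), *CDH15* (-0.77), *NCAM1* (-0.90), *ALCAM* (0.67), *CTNNB1* (-0.26) and *CTNND1* (-0.40) kept their values, with adjusted *P* from 0.0628 to 0.135, and 6 had an unadjusted *P* under 0.05. It called 2 list genes higher and 1 lower, and 346 probes higher and 422 lower. With the channels unpaired, *CDH13* (-0.45) and *CTNNB1* (-0.26) no longer passed, 3 genes of the group were lower, 3 list genes higher and 6 lower, and 666 probes higher and 1560 lower. Without the filter on dim probes, *CDH15* (-0.77), *CTNNB1* (-0.26) and *CTNND1* (-0.40) no longer passed, 2 genes of the group and 7 list genes were lower, and 1591 probes were higher and 2099 lower. With the added 1.3-fold minimum, 1626 probes were higher and 2237 lower.

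With each array left out, *CTNNB1* ran from -0.31 to -0.21 and *CTNND1* from -0.46 to -0.33. *CTNNA1* minus *CTNNB1* ran from -0.045 to 0.20. Of the group 3 to 5 genes were lower, of the lists 5 to 10 were higher and 6 to 18 lower, and of the probes 929 to 2280 were higher and 1542 to 2701 lower.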
